A study of Mus musculus with 4 samples.

Results

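The genes described here make or move cholesterol. They are 29 of the 27998 genes in the count tables, taken by symbol: 19 genes of cholesterol synthesis and its sterol sensor, and 10 genes of cholesterol transport, storage and export. All 29 symbols were found. Their levels were followed across 8 immune lineages of mouse brain and glioma, with each cell placed in a lineage by its own counts of marker genes that are not among the 29.

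The cells came from C57BL/6J mice. In the glioma groups, cells of the glioma-005 mouse glioma line had been injected into the hippocampus at 8 to 12 weeks of age, antibodies were given into the abdomen from day 7, and brains were collected at day 35. The IgG group received a rat IgG2a isotype antibody (clone LTF-2), the anti-CTLA-4 group a Syrian hamster antibody against the T cell inhibitory receptor CTLA-4 (clone 9H10), and the depletion group anti-CTLA-4 together with a CD4-depleting antibody (clone GK1.5). The fourth group was healthy brain, for which the labels give neither an age nor an antibody. Each glioma library pooled 3 tumors, and each group is 1 library, so a difference between groups has no replicate check. The 4 sorted fractions (CD45int CX3CR1+ microglia, CD45hi CD11b+ myeloid cells, CD45hi CD3+ T cells and the remaining CD45hi cells) were mixed in equal parts within a group, so the share of each lineage was set by the mixing and is not compared. The implanted line, the orthotopic site and the pooling of animals all limit what a library stands for.

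Cells build cholesterol from acetyl units by way of mevalonate, squalene and lanosterol. When sterol in the endoplasmic reticulum is scarce, the transcription factor encoded by Srebf2 is released from its anchor, of which Insig1 is a part, and raises the genes of the whole chain, together with NF-Y and Sp1 bound nearby. When sterol is plentiful, oxysterols activate the liver X receptors Nr1h2 and Nr1h3, which raise the exporters Abca1 and Abcg1. In the brain most cholesterol sits in myelin, and phagocytes that take up membrane debris release it in the lysosome through Lipa, Npc2 and Npc1, store it as esters through Soat1 in droplets coated by Plin2, or export it.

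Since SREBP2 works with NF-Y, the sequence before the start site was read for 23 of the 29 genes that have an entry in a RefSeq promoter table (GRCm38.p6). Stretches of 250 bases from 4 genes are shown. They end just before the RefSeq start, and 3 of them belong to synthesis genes that were higher in dendritic cells, while the other belongs to an exporter that was lower there. Capitals mark the NF-Y box CCAAT, read as ATTGG on the other strand, and the sterol element TCACNCCAC.
Hmgcs1, chr13:119690101-119690350, plus strand: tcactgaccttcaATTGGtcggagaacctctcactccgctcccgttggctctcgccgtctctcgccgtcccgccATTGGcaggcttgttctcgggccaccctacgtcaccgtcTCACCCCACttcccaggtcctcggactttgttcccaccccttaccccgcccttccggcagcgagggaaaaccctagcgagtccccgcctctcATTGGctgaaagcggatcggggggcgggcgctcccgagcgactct
Pmvk, chr3:89454291-89454540, plus strand: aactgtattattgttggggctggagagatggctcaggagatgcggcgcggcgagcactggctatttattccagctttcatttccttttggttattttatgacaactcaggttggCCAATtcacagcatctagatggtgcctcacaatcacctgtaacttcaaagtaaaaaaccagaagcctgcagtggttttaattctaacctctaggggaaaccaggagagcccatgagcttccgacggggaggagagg
Mvd, chr8:122443423-122443672, minus strand: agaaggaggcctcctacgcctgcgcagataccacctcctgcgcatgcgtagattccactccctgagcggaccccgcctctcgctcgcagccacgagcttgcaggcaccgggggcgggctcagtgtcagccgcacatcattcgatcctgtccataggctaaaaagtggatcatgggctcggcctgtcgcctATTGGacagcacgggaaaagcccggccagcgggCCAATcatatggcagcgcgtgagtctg
Abca1, chr4:53159896-53160145, minus strand: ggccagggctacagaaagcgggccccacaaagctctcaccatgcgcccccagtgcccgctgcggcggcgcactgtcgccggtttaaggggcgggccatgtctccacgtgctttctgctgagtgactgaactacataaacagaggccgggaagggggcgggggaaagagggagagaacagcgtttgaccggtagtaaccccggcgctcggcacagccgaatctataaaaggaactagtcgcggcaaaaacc
Hmgcs1 encodes the synthase that makes hydroxymethylglutaryl-CoA, and its window held 3 NF-Y boxes, whose first bases lie 237, 176 and 45 bases before the start, and the single sterol element found in the 23 windows. Pmvk, the phosphomevalonate kinase, had 1 NF-Y box, 136 bases before the start. Mvd, the mevalonate diphosphate decarboxylase, had 2, at 60 and 27 bases. In the window from 250 bases before to 50 after the start, searched on both strands, CCAAT was present in 16 of the 16 synthesis genes with an entry. A gene with several listed starts was counted, here and among all genes, if any of its windows held the motif, and for Pmvk and Dhcr7 the 250 bases before some of the starts held none. CCAAT was present in 4 of the 7 transport genes, in 41.1% of 27025 genes overall and in 42.3% of the 7719 genes that were also tested across lineages. The Sp1 box GGGCGG was present in 15 of 16 synthesis genes and 5 of 7 transport genes, against 69.5% of the tested genes. The sterol element was present in 1 of 16 synthesis genes and 0 of 7 transport genes, against 1.36% of tested genes, and the E-box CACGTG in 4 of 16 and 2 of 7, against 12.3%. With the window shortened to 100 bases before the start, CCAAT remained in 13 of the 16 synthesis genes and in 28.9% of the tested genes. These are matches of letters only.

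The libraries held 1388 cells from healthy brain, 1434 from IgG, 1763 from anti-CTLA-4 and 3706 from depletion after filtering, with medians of 4359 to 5853 UMIs (unique molecular identifiers, 1 per captured RNA molecule) a cell. Between 0 and 5 cell barcodes were shared by any pair of libraries. Levels are given on the counts-per-million scale (CPM), a gene's UMIs scaled to the total UMIs of that lineage in that library. Cells were placed in lineages by these markers, so the lineage where they peak was largely fixed in advance and does not check the lineage names. Microglia, monocyte, neutrophil, dendritic cell, T, NK and B cell markers had their highest summed level in the lineage they define, in every library where it had at least 20 cells. Macrophage markers did not: in the 3 tumor libraries they were at 11017 to 16590 CPM in macrophages and at 14149 to 17518 in monocytes. The list holds genes that both carry, and these 2 lineages are separated by a ratio of marker counts. Dendritic cells also held macrophage markers, at 10186, 6307 and 3687 CPM in IgG, anti-CTLA-4 and depletion, beside 2830, 2826 and 2642 of their own, and the part of this in the dendritic cell results was not tested. Dendritic cells (2 cells) and NK cells (4 cells) were nearly absent from healthy brain, and the 20 healthy macrophages are few. Hemoglobin and other erythrocyte markers made up 19695 and 34845 CPM in the B cells of healthy brain and IgG, against 1.0 and 11.0 in the other 2 libraries, and neutrophil markers made up 382569 CPM in healthy neutrophils against 48769 to 78522 in tumors. Their part in the B cell and neutrophil results was not tested. The number of cells near the line between monocytes and macrophages was 8 to 97 a library among macrophages and 11 to 65 among monocytes.

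CPM values compare a gene across cells and not with another gene. For the lineage comparison, the counts of each lineage were summed within each library, and each lineage was set against the unweighted mean of the others with edgeR's quasi-likelihood test, with the library as a block, over 30 sums and 10003 genes. A gene was called at a Benjamini-Hochberg adjusted p under 0.05, and every adjusted p below is of that kind. The 4 libraries are of different groups and stand in as replicates. These tests set a lineage's average difference against a spread between libraries that is pooled over all lineages. A called gene therefore need not differ in every library. Of the 29 genes, 26 passed the filter on low counts: 16 of 19 synthesis genes and all 10 transport genes. Lss (lanosterol synthase), Tm7sf2 and Hsd17b7 (a sterol reductase and a ketoreductase of the last steps) had 141, 103 and 158 UMIs over all cells kept and were not tested.

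Dendritic cells, placed by markers of conventional dendritic cells only, stood highest in cholesterol synthesis. The 19 genes together reached 705 CPM in IgG, 689 in anti-CTLA-4 and 722 in depletion. In the 7 other lineages the same sum lay between 178 and 459 CPM in every library, so the dendritic cell values did not overlap with any other. Exact Poisson intervals, which cover counting error only, ran from 616 to 787 CPM for dendritic cells, and the highest upper bound elsewhere was 496. Of the 16 genes tested, 12 were higher in dendritic cells and 0 lower, where 14.7% of all genes were called higher and 6.57% lower. The median difference of the 16 was 1.49 on the log2 scale, against -0.04 for all genes.

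**Figure D1:**
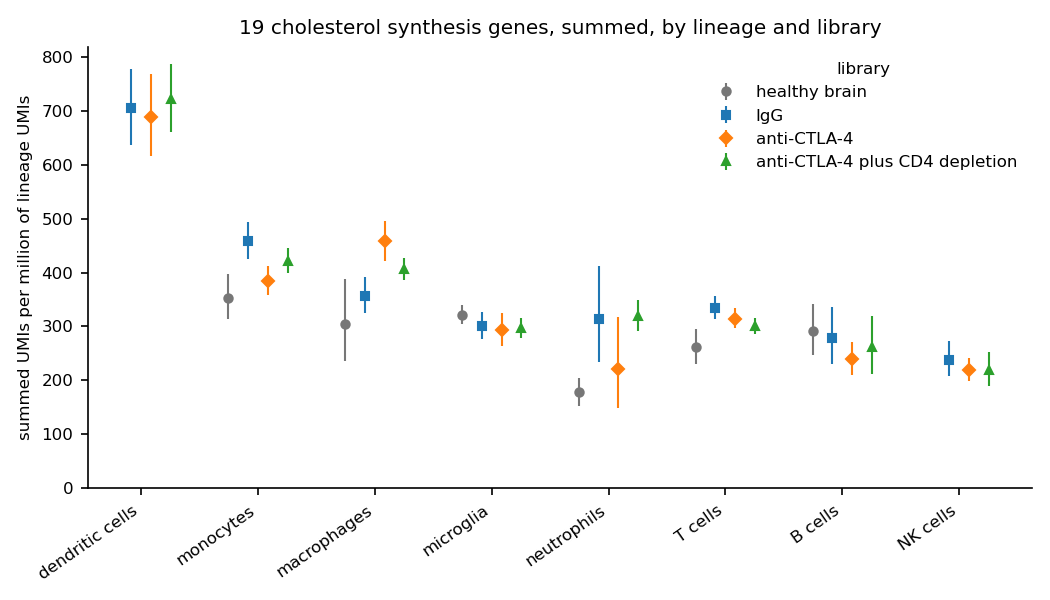
Summed CPM of the 19 synthesis genes (vertical axis) in each lineage (horizontal axis), 1 point per library with its exact 95% Poisson interval. The 3 dendritic cell points, at 689 to 722, sit above every other point, and lineages with fewer than 20 cells in a library have no point.

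The 4 genes with the largest differences act between the isoprenoid steps and the demethylation of lanosterol. Idi1, the isomerase that makes the building block dimethylallyl diphosphate, was at 53.6, 88.5 and 66.9 CPM in dendritic cells of IgG, anti-CTLA-4 and depletion. In the other lineages it ranged from 1.12 CPM in NK cells to 36.9 in macrophages, so no other value reached the dendritic cells (log2 difference 2.66 ± 0.22 SE, adjusted p = 3.06e-10). Sqle, squalene epoxidase and a control point of the pathway, was at 17.9, 25.3 and 22.3 CPM, above its highest value of 11.2 elsewhere (2.70 ± 0.44, adjusted p = 3.5e-05). Cyp51, the lanosterol demethylase, was at 66.1, 71.7 and 41.8 CPM, with 25.6 as its highest value elsewhere (2.50 ± 0.28, adjusted p = 8.48e-08). Fdps, which makes farnesyl diphosphate, was at 71.4, 99.0 and 93.4 CPM, against at most 48.2 elsewhere (2.39 ± 0.22, adjusted p = 4.32e-09). All 4 genes were thus separated from every other lineage in every library.

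The other 8 called genes were Pmvk (1.82), Msmo1, the sterol methyl oxidase (1.66), Hmgcs1 (1.61), Mvd (1.57), Insig1 (1.42), Fdft1, squalene synthase (1.33), Srebf2 (1.14) and Nsdhl, a sterol dehydrogenase (1.13). Their adjusted p ran from 2.41e-08 for Pmvk to 0.0242 for Nsdhl. The 4 tested genes that were not called were Mvk, mevalonate kinase (0.64 ± 0.51), Dhcr7, which makes the last reduction (0.55 ± 0.42), Ebp, the sterol isomerase (0.36 ± 0.18), and Sc5d, the desaturase that acts between Ebp and Dhcr7 (0.08 ± 0.30). Of these 4, Ebp, Sc5d and Dhcr7 act late, on sterols whose rings are already closed. The called genes Cyp51, Msmo1 and Nsdhl also act on sterols with closed rings. Dendritic cells had medians of 8731 to 10863 UMIs a cell, and macrophages, whose synthesis sum was 305 to 458 CPM, had 7651 to 10694. Cycling markers were carried by 2, 0 and 1 of the dendritic cells in the 3 libraries. The part of depth in the dendritic cell result was not tested. The count of 12 stayed between 10 and 13 under all other settings run, leaving out each library among them.

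**Figure D2:**
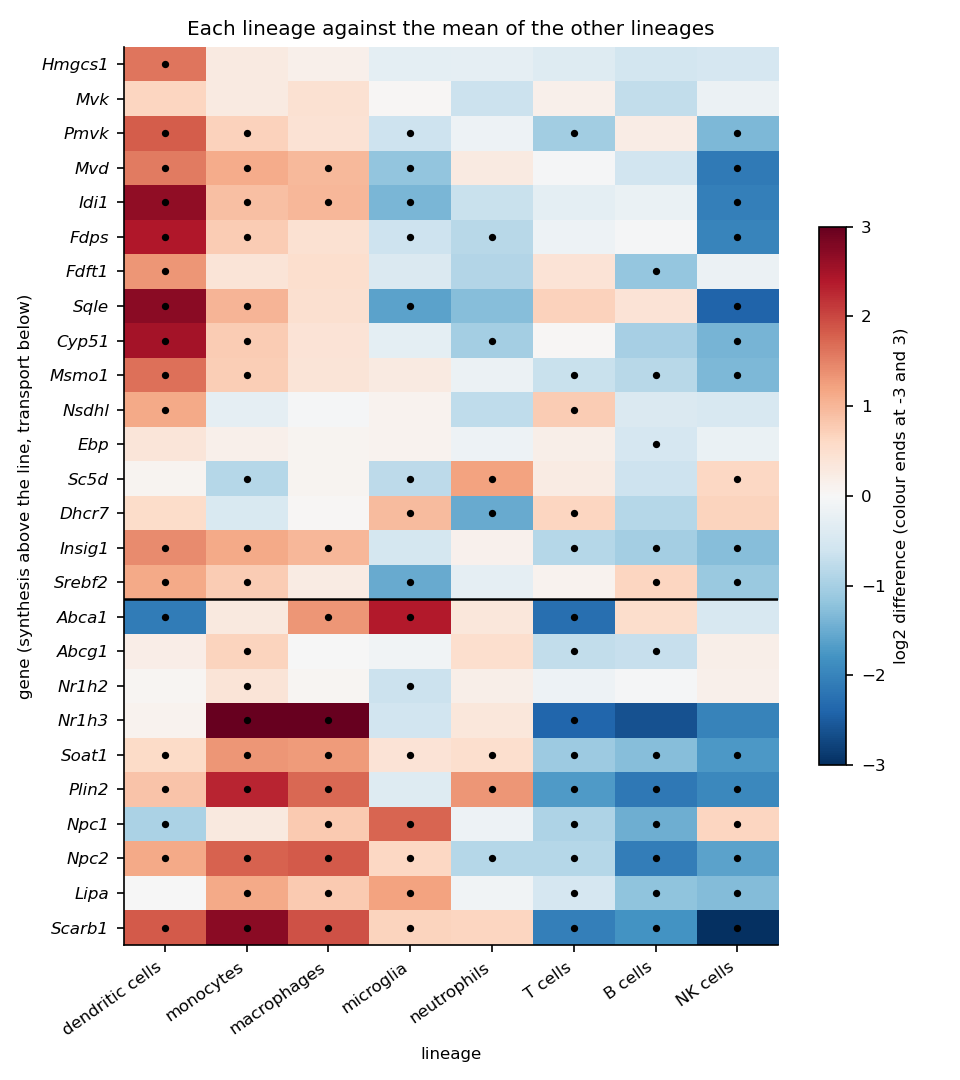
Log2 difference of each lineage (horizontal axis) from the mean of the other lineages for the 26 tested genes (vertical axis), red for higher and blue for lower, with a dot where the adjusted p is under 0.05. The dendritic cell column is red through most synthesis genes, while microglia have 7 dotted blue cells there and are red for Abca1, Npc1 and Lipa.

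In microglia more synthesis genes were called lower than higher. Their synthesis sum was 322 CPM in healthy brain, then 301, 293 and 296 in IgG, anti-CTLA-4 and depletion. Of 16 genes 1 was higher and 7 lower, where 31.2% of all genes were called higher and 22.9% lower. Srebf2, the master regulator, was at 18.6, 13.3, 11.4 and 10.7 CPM in the 4 libraries, in the same order. In monocytes it was at 56.2, 52.3, 35.2 and 37.9 CPM, and the difference of microglia from the mean of the other lineages was -1.51 ± 0.21 (adjusted p = 7.11e-07). Sqle was at 1.96, 2.13, 2.45 and 1.23 CPM in microglia (-1.62 ± 0.48, adjusted p = 0.00562), a call lost under 2 of the 11 other settings. Idi1 was at 7.84, 4.80, 8.98 and 7.98 CPM (-1.37 ± 0.23, adjusted p = 1.2e-05) and Mvd at 4.41, 5.86, 5.71 and 5.83 CPM (-1.19 ± 0.27, adjusted p = 0.00048). The other 3 lower genes were Sc5d (-0.79), Pmvk (-0.63) and Fdps (-0.61). The exception was Dhcr7, at 17.4, 12.3, 11.4 and 12.6 CPM, which was higher in microglia (0.96 ± 0.23, adjusted p = 0.000998).

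Monocytes had 9 synthesis genes higher and 1 lower, where 23.8% of all genes were called higher and 9.35% lower. The largest differences were for Insig1 (1.14), Mvd (1.11), Sqle (1.02) and Idi1 (0.91). The Sqle call was lost under 3 of the 11 other settings, with adjusted p up to 0.507. Insig1, which holds the SREBP complex in the endoplasmic reticulum when sterol is present, was at 18.7, 25.8, 30.7 and 30.9 CPM in healthy brain and then IgG, anti-CTLA-4 and depletion. Mvd was at 18.7, 13.6, 17.6 and 21.1 CPM, above all 4 microglia libraries. The gene that was lower was Sc5d, at 3.74, 12.9, 8.57 and 10.2 CPM (-0.85 ± 0.23, adjusted p = 0.0043). Macrophages had 3 synthesis genes higher and 0 lower, where 17.6% of all genes were called higher and 6% lower. These were Idi1 (1.0 ± 0.20, adjusted p = 0.000323), Insig1 (0.99 ± 0.24, adjusted p = 0.00208) and Mvd (0.96 ± 0.24, adjusted p = 0.00312). That count was 4 without healthy brain, 3 without IgG, 2 without anti-CTLA-4 and 1 without depletion.

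NK cells had the lowest synthesis sum of the lymphocytes, at 238, 219 and 220 CPM in IgG, anti-CTLA-4 and depletion. Of the synthesis genes 9 were lower and 1 higher, where 16% of all genes were called lower and 19.9% higher. Sqle had 4.48 CPM in IgG and 0 UMIs in the other 2 libraries (-2.39 ± 0.71, adjusted p = 0.00959). That call was lost under 3 of the 11 other settings. Mvd was at 3.36, 2.10 and 3.37 CPM (-2.12 ± 0.41), Idi1 at 5.6, 6.84 and 1.12 (-2.04 ± 0.33) and Fdps at 14.6, 6.31 and 2.24 (-1.97 ± 0.33). The NK values of Mvd were below every nonzero value of that gene in the other lineages. Sc5d went the other way, at 29.1, 28.4 and 23.6 CPM (0.63 ± 0.23, adjusted p = 0.0297), but it was not called when any 1 of the 3 tumor libraries was left out.

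T cells had 2 synthesis genes higher and 3 lower, where 25.8% of all genes were called higher and 18.7% lower. The lower genes were Pmvk (-1.03), Insig1 (-0.85) and Msmo1 (-0.67), and the higher ones Nsdhl (0.75 ± 0.23, adjusted p = 0.00925) and Dhcr7 (0.64 ± 0.24, adjusted p = 0.0293). The higher count fell to 1 without healthy brain, 0 without IgG and 1 without anti-CTLA-4, and the lower count ranged from 1 without depletion to 4 without healthy brain. B cells had 1 higher and 4 lower, where 18.7% of all genes were called higher and 18.4% lower. Srebf2 was the higher one, at 22.9, 49.0, 43.4 and 51.9 CPM (0.63 ± 0.22, adjusted p = 0.022), and the lower ones were Fdft1 (-1.17), Insig1 (-1.03), Msmo1 (-0.83) and Ebp (-0.51). Without healthy brain 2 of the 4 lower calls were made, without IgG 1, and without either other library 0, and the higher call was kept without healthy brain and lost without each of the other 3.

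Neutrophils held few UMIs, with medians of 1949 to 3212 a cell, and 29 to 475 synthesis UMIs a library. Of the synthesis genes 1 was higher and 3 lower, where 21.7% of all genes were called higher and 16.8% lower. The higher one was Sc5d, at 22.2, 61.5, 15.3 and 32.3 CPM in healthy brain and then IgG, anti-CTLA-4 and depletion (1.21 ± 0.24, adjusted p = 0.000179). Dhcr7 (-1.52), Cyp51 (-1.03) and Fdps (-0.82) were lower. Dhcr7 had 0 UMIs in IgG and in anti-CTLA-4. The lower count was 0 without healthy brain, 0 without IgG, 1 without anti-CTLA-4 and 2 without depletion.

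Among the transport genes, the exporters were divided by lineage. Abca1, which loads cholesterol onto lipid-poor apolipoprotein, was highest in microglia, at 250 CPM in healthy brain and 180, 186 and 170 in IgG, anti-CTLA-4 and depletion. Those values lay above all others, of which the next was 163 in macrophages of the anti-CTLA-4 library (2.39 ± 0.26, adjusted p = 1.11e-08). Macrophages were at 37.5, 147, 163 and 65.9 CPM (1.32 ± 0.28, adjusted p = 0.00072). T cells had only 10.5 to 13 CPM (-2.27 ± 0.37, adjusted p = 1.33e-05), and dendritic cells 16.1, 19 and 5.57 (-2.11 ± 0.52, adjusted p = 0.00396). Dendritic cells thus had the highest synthesis and, with T cells, the lowest Abca1 of the tumor libraries. Abcg1, which exports to mature lipoprotein particles, differed less. It was higher in monocytes (0.67) and lower in T cells (-0.73) and B cells (-0.69), and in microglia it was not called (-0.11 ± 0.21). Those calls were lost under 2, 2 and 4 of the 11 other settings, with adjusted p up to 0.107, 0.131 and 0.171.

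The 2 liver X receptors differed in reach. Nr1h3, the form found in phagocytes, was at 26.5, 23.0 and 19.4 CPM in monocytes of IgG, anti-CTLA-4 and depletion and at 24.4, 39.9 and 10.0 in macrophages. Every other lineage held 4.21 CPM or less in every library, from 0 to 9 UMIs. In healthy brain it had 5 UMIs in monocytes (6.24 CPM) and 0 of 213459 UMIs in the 20 macrophages, which allows up to 14.1 CPM. The fitted differences were 3.63 ± 0.35 for monocytes (adjusted p = 2.64e-09) and 3.50 ± 0.37 for macrophages (adjusted p = 2.26e-08), and they depend on how the near-empty lineages are weighted. Nr1h2, the form found in most cells, ranged only from 26.7 CPM in microglia to 57.7 in monocytes. It was lower in microglia (-0.64 ± 0.14, adjusted p = 0.000344) and higher in monocytes (0.40 ± 0.13, adjusted p = 0.0211). The monocyte call was lost under 5 of the 11 other settings, with adjusted p up to 0.198.

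Esterification and storage genes were high in monocytes and macrophages. Plin2, a coat protein of lipid droplets, was at 217, 143, 132 and 110 CPM in monocytes of healthy brain and then IgG, anti-CTLA-4 and depletion, and at 131, 134, 126 and 66.7 in macrophages. The differences from the other lineages were 2.28 ± 0.19 (adjusted p = 1.04e-10) and 1.72 ± 0.20 (adjusted p = 1.45e-07). Neutrophils were also higher, at 69.3, 49.2, 130 and 76.0 CPM (1.32 ± 0.24, adjusted p = 8.06e-05). So were dendritic cells, at 48.5 to 67.8 CPM (0.86 ± 0.28, adjusted p = 0.0277), a call lost under 4 of the 11 other settings. T cells (-1.70), NK cells (-1.94) and B cells (-2.15) were lower, with at most 19.1 CPM in any library. Soat1, which makes cholesterol esters, was higher in monocytes (1.33), macrophages (1.28), dendritic cells (0.58), neutrophils (0.51) and microglia (0.42), and lower in all 3 lymphocyte lineages (-1.10 in T cells, -1.73 in NK cells and -1.29 in B cells). Its values in monocytes and macrophages, 134 to 220 CPM, did not overlap with the 15.3 to 51.6 of lymphocytes.

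**Figure D3:**
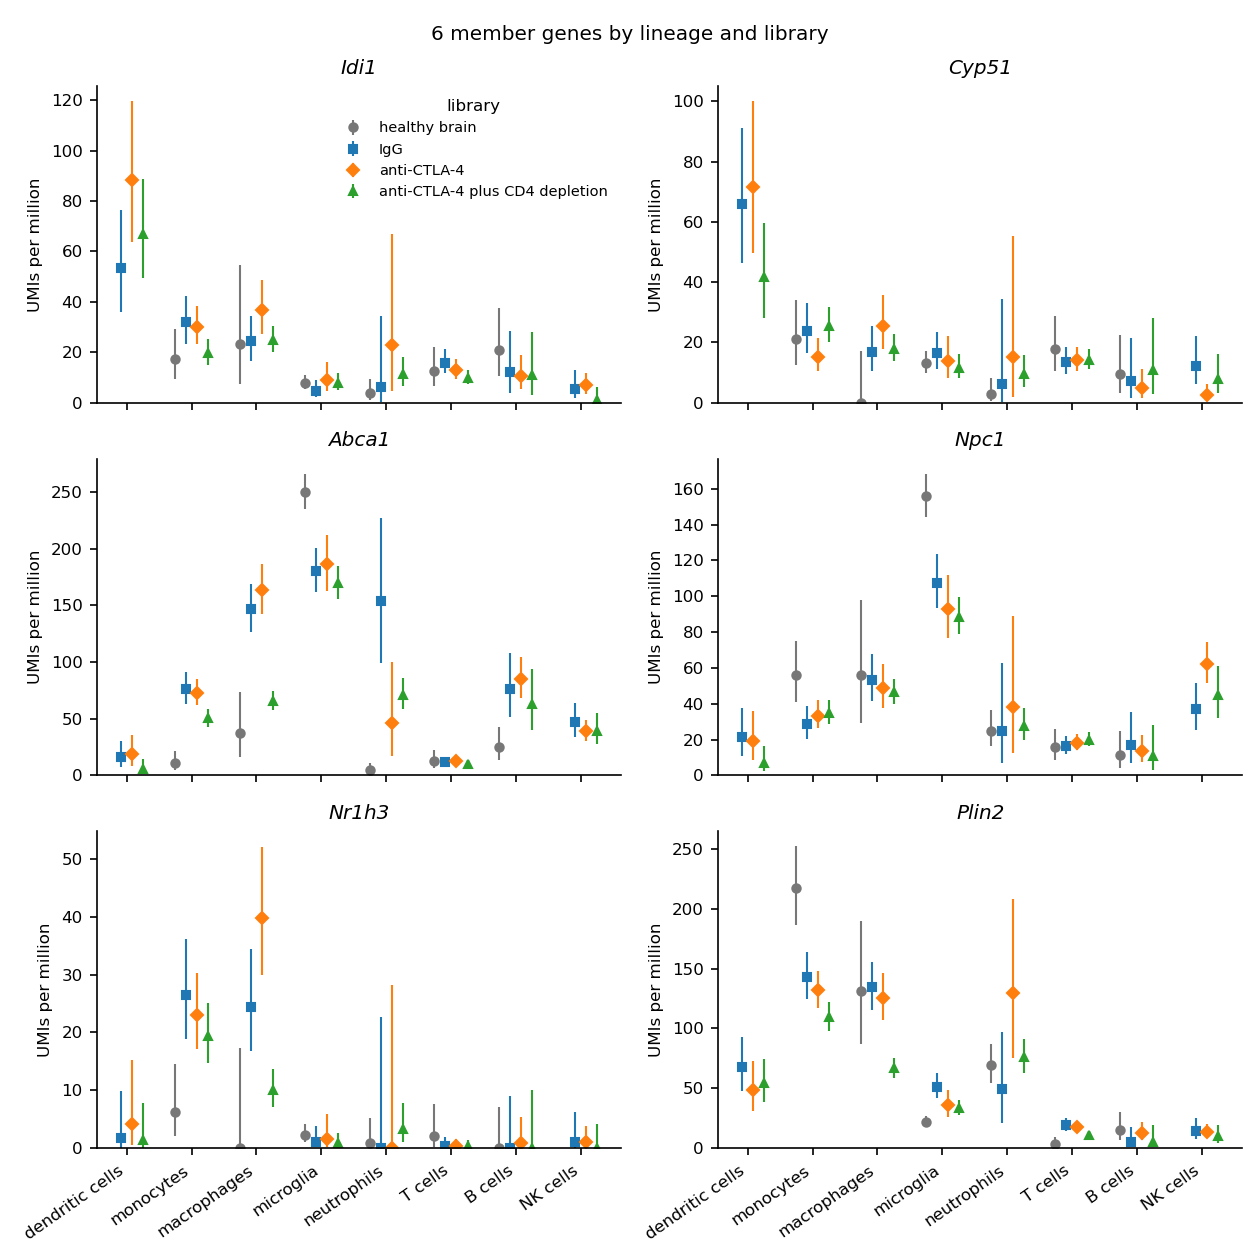
CPM (vertical axes) of 6 genes in each lineage (horizontal axis), 1 point per library with its exact 95% Poisson interval. Idi1 and Cyp51 peak in dendritic cells, Abca1 and Npc1 in microglia, Nr1h3 in monocytes and macrophages of tumors, and Plin2 in monocytes.

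The lysosomal genes that free cholesterol from what a cell has taken up were not shared evenly. Npc1, the membrane protein that passes cholesterol out of the lysosome, was at 156, 108, 93.0 and 88.7 CPM in microglia, above its highest value of 62.1 elsewhere (1.75 ± 0.14, adjusted p = 1.26e-11). The highest value outside microglia was in NK cells of the anti-CTLA-4 library, and NK cells as a whole were also higher (0.65 ± 0.18, adjusted p = 0.00562) at 36.9, 62.1 and 44.9 CPM. That NK call was lost without the anti-CTLA-4 library. Its soluble partner Npc2 had another pattern. It carried 50541 of the members' UMIs in the cells kept and was highest in monocytes (795, 2327, 2204 and 2072 CPM) and macrophages (1321, 2330, 2484 and 1806). Microglia were at 658, 1372, 1055 and 1357 CPM and B cells at 189, 186, 160 and 167. Dendritic cells, at 1055 to 1384 CPM, were also called higher for Npc2 (1.13 ± 0.21, adjusted p = 0.000145). Lipa, the acid lipase that cleaves cholesterol esters, was at 109, 83.2, 92.2 and 73.0 CPM in microglia (1.21 ± 0.16, adjusted p = 3.38e-07) and was also higher in monocytes (1.12) and macrophages (0.78). Its 2 highest values outside microglia were both in healthy brain, 125 CPM in monocytes and 108 in macrophages.

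Scarb1, the receptor for high-density lipoprotein, followed the myeloid line as well. Monocytes were at 97.4, 45.5, 41.0 and 41.5 CPM (2.71 ± 0.21, adjusted p = 2.33e-11), macrophages at 84.3, 27.5, 23.3 and 28.5 (1.91 ± 0.24, adjusted p = 3.5e-07), and dendritic cells at 39.3, 25.3 and 13.9 (1.83 ± 0.33, adjusted p = 0.000137). NK cells held 1 UMI in each of the 3 tumor libraries (-3.93 ± 0.56, adjusted p = 2.29e-06), and T cells (-2.05) and B cells (-1.80) were also lower.

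Counted over the 10 transport genes, 8 were higher and 0 lower in macrophages, and 8 higher and 0 lower in monocytes. Microglia had 6 higher and 1 lower, and that 6 became 3 without IgG, 4 without anti-CTLA-4 and 3 without depletion. Dendritic cells had 4 higher and 2 lower. The 4 became 1 without IgG and 2 without either anti-CTLA-4 or depletion, and the 2 became 1 without anti-CTLA-4 and 0 without depletion. T cells had 0 higher and 9 lower, of which 5 were made without IgG. B cells had 0 higher and 7 lower, and NK cells 1 higher and 5 lower. Neutrophils had 2 higher (Plin2 and Soat1) and 1 lower (Npc2), and the 2 became 3 without healthy brain or depletion and 1 without IgG or anti-CTLA-4. The shares of all genes called in each lineage are those given above. The median difference of the 10 genes was 1.30 in macrophages, 1.23 in monocytes, 0.53 in microglia, 0.34 in neutrophils, 0.15 in dendritic cells, -1.01 in T cells, -1.37 in B cells and -1.45 in NK cells, while the median over all genes lay between -0.04 and 0.07.

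Microglia and macrophages, the 2 tissue phagocytes, were set against each other in the same fit. Of the synthesis genes 9 were lower in microglia and 0 higher, where 21.2% of all genes were lower and 19.9% higher. Idi1 (-2.08 ± 0.28, adjusted p = 9.5e-07), Mvd (-1.88), Sqle (-1.82) and Srebf2 (-1.54) showed the largest gaps. The Sqle call was lost under 2 of the 11 other settings, with adjusted p up to 0.0806. Of the transport genes 6 were lower in microglia, led by Nr1h3 (-3.56), Plin2 (-1.84), Scarb1 (-1.08) and Npc2 (-1.06). Another 2 were higher: Npc1 (0.85 ± 0.20, adjusted p = 0.000963) and Abca1 (0.94 ± 0.38, adjusted p = 0.0491). The Abca1 call was lost under 8 of the 11 other settings, with adjusted p from 0.00625 to 0.196 over the 11. The count of 9 was 7 without IgG and 5 without anti-CTLA-4 or depletion, and the count of 6 was 5 without IgG and 3 without anti-CTLA-4. Macrophages were deeper, with medians of 7651 to 10694 UMIs a cell against 5130 to 5862 in microglia.

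Genes of the same pathways outside the 29 were read from 3 further lists. Of 17 tested genes of sterol and fatty acid synthesis under SREBP, dendritic cells had 6 higher and 1 lower, where 14.7% and 6.57% of all genes were. Insig2, a second anchor of the SREBP complex, was lower (-1.36). Microglia had 3 higher and 7 lower in this list, beside 31.2% and 22.9% of all genes, led by Scd1 (-3.52), Elovl6 (-3.35) and Fads1 (3.26). Scd1, the stearoyl-CoA desaturase, was nearly a B cell gene, at 258, 169, 234 and 208 CPM there (8.42 ± 0.20, adjusted p = 1.26e-22) and with 1 UMI in all microglia together.

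Of 8 tested liver X receptor targets and oxysterol enzymes, 6 were higher and 1 lower in microglia, 5 higher and 0 lower in macrophages, and 4 higher and 1 lower in monocytes. Of all genes, 31.2% were higher and 22.9% lower in microglia, 17.6% and 6% in macrophages, and 23.8% and 9.35% in monocytes, and the counts of the next list are read against the same shares. Apoe, the apolipoprotein that accepts exported cholesterol, was among them in each, with differences of 2.81, 4.06 and 2.55. In microglia it was at 1855 CPM in healthy brain and 9190, 6258 and 13598 in the tumor libraries. Ch25h, which makes 25-hydroxycholesterol, was higher in microglia (3.64) and macrophages (3.84). Pltp, the phospholipid transfer protein, was lower in microglia (-2.30) and higher in macrophages (2.68), monocytes (3.6) and dendritic cells (3.41). Of 14 tested lipid uptake and droplet genes, 11 were higher in monocytes and 10 in macrophages, with 0 lower in either. These were led by Fabp4, a fatty acid carrier, in monocytes (7.42), and by the scavenger receptor Msr1 in macrophages (5.36). Microglia had 6 higher and 2 lower, led by Lpl, lipoprotein lipase (4.24), the large lipoprotein receptor Lrp1 (3.64) and Cd36 (3.45).

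Cycling cells need new membrane, and cycling was read in T cells. Those with at least 2 UMIs of cycling markers numbered 49, 52 and 89 in IgG, anti-CTLA-4 and depletion and were compared with the other T cells of the same library. Of 15 tested synthesis genes 3 were higher and 0 lower, where 9.66% of 8137 genes were called higher and 6.11% lower. Fdps rose from 16.5, 17.2 and 16.1 CPM to 44.3, 42.3 and 39.7 (1.31 ± 0.21, adjusted p = 0.000396). Cyp51 rose from 8.93, 12.0 and 12.5 CPM to 27.2, 23.5 and 25.5 (1.14 ± 0.27, adjusted p = 0.00989). Idi1 rose from 5.17, 11.3 and 8.26 CPM to 48.6, 20.4 and 21.3 (1.75 ± 0.37, adjusted p = 0.00419). For these 3 genes every cycling value lay above every value of the other T cells. Of the genes that missed the threshold, Hmgcs1 went from 10.3, 14.1 and 11.0 CPM to 28.6, 14.1 and 24.1, level in anti-CTLA-4 and higher in the other 2 libraries (0.88 ± 0.31, adjusted p = 0.0692). Of 8 tested transport genes 0 were called, with a median of -0.28 (synthesis 0.54). Over both sides, edgeR gave 10 of 23 genes at an unadjusted p under 0.05, and DESeq2 called 2 and gave 3 at that unadjusted level.

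**Figure D4:**
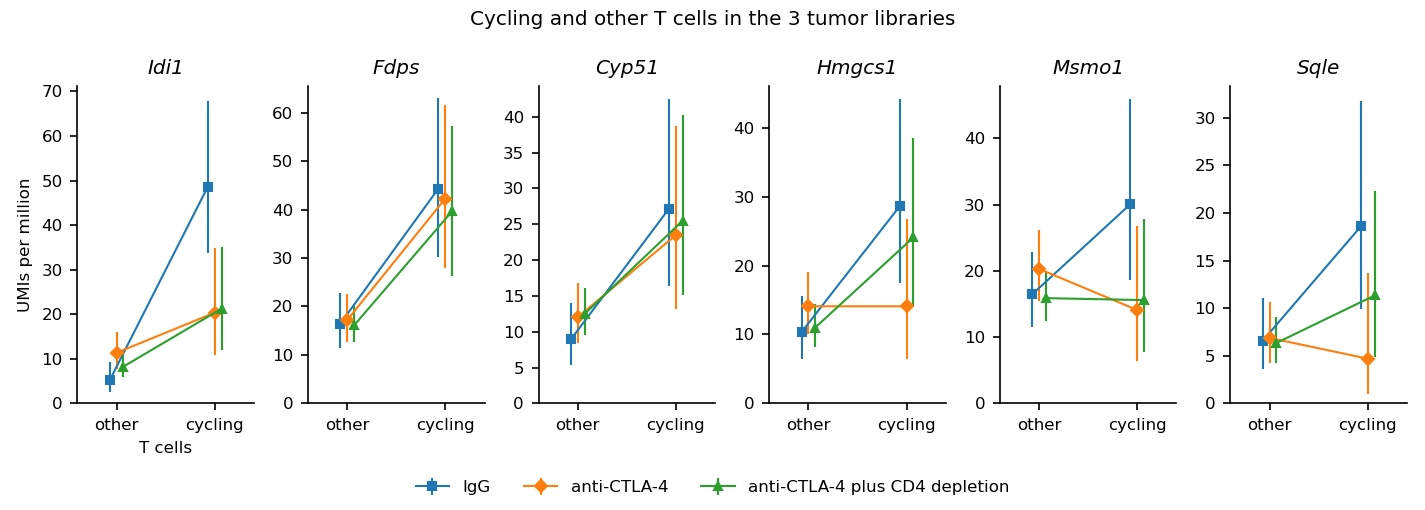
CPM (vertical axes) of 6 synthesis genes in other and cycling T cells (horizontal axes), with lines joining the same library and exact 95% Poisson intervals. Idi1, Fdps and Cyp51 are higher in cycling cells in all 3 tumor libraries, and the other 3 genes are not higher in the anti-CTLA-4 library.

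Cycling T cells were also deeper, with medians of 12015, 10891 and 7170 UMIs a cell in IgG, anti-CTLA-4 and depletion against 5197, 5338 and 3949 in the other T cells, while the line of 2 marker UMIs was the same for all cells. The part of depth in these differences was not tested. When every T cell was thinned to 1000 UMIs, 0 synthesis genes were called, but only 2835 genes in all, and 5 of the 23 members, had enough counts to be tested. Idi1, Fdps and Cyp51 were not among them. The count was 2 without IgG, and 4 without anti-CTLA-4 or without depletion. Among the genes of the 3 further lists, Fabp5 was higher (1.10) and Mylip lower (-0.89) in cycling T cells.

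Arg1 marks a state of tumor macrophages, and macrophages with an Arg1 UMI (82, 81 and 239 cells) were compared with those without (57, 32 and 227). None of 21 tested members was called by edgeR or by DESeq2, where 0.454% of 6825 genes were called higher and 0.322% lower. At an unadjusted p under 0.05, edgeR gave 2 members and DESeq2 0. Those nearest were Nr1h3 (0.74 ± 0.32, adjusted p = 0.565) and Abca1 (0.35 ± 0.16, adjusted p = 0.631). Abca1 was at 162, 170 and 74.5 CPM with Arg1 and at 122, 139 and 55.1 without, higher with Arg1 in 3 of 3 libraries. Macrophages with Arg1 were also deeper, with medians of 9787.5, 11450 and 8215 UMIs a cell against 9667, 8294 and 6956. The part of depth in this comparison was not tested.

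Between groups there is 1 library on each side, so the ratios that follow compare libraries, with 95% exact intervals for counting error only and no test. A gene was read as changed at 1.5-fold or more with the UMIs of the 2 libraries adding to 50 or more. Macrophages of healthy brain were too few (20 cells) to compare.

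In microglia, IgG tumors against healthy brain gave 4 members higher and 1 lower, where 8.26% of 8462 genes were higher and 30.3% lower. Of the members, 11 synthesis and 9 transport genes reached 50 UMIs. The median of all genes in this comparison was -0.32 on the log2 scale, and each log2 value below is given relative to it. Npc2 went from 658 to 1372 CPM, a ratio of 2.09 (1.98 to 2.20), or 1.38 relative to the median. Plin2 went from 21.6 to 51.2 CPM, a ratio of 2.37 (1.76 to 3.21), or 1.56 relative. Pmvk (ratio 2.14, 1.44 to 3.17) and Insig1 (1.94, 1.18 to 3.19) were the synthesis genes that were higher, and Nsdhl the one that was lower (0.451, 0.213 to 0.874). Abca1 and Npc1, the 2 genes that set microglia apart from other lineages, were at ratios of 0.72 and 0.691, or -0.16 and -0.22 relative to the median. Summed synthesis was at 322 and 301 CPM, a ratio of 0.936 (0.847 to 1.03). Divided by the median ratio of all genes, this became a ratio of 1.17, which is not on the log2 scale. The median log2 ratio of the synthesis genes is given without subtracting the median of all genes, and was -0.16 against -0.32 for all genes. With median-of-ratios scaling it was 0.16, so its sign depends on the scaling.

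Anti-CTLA-4 against IgG left microglia with 1 member higher, Hmgcs1 (ratio 1.59, 0.902 to 2.80), and 1 lower, Fdps (0.662, 0.344 to 1.22), where 5.85% of 6364 genes were higher and 5.17% lower. Both intervals include 1, and 5 synthesis and 9 transport genes reached 50 UMIs. Depletion against anti-CTLA-4 gave 2 higher and 0 lower, where 12.1% of 7201 genes were higher and 18.9% lower. These were Insig1 (1.97, 0.916 to 4.87) and Fdps (1.62, 0.931 to 2.99), again with intervals that include 1. In this comparison 9 synthesis and 9 transport genes reached 50 UMIs. Summed synthesis in microglia differed by less than counting error in both comparisons (ratios 0.973, 0.850 to 1.11, and 1.01, 0.895 to 1.15). Cycling markers in microglia were at 12.5, 238, 56.3 and 444 CPM in healthy brain and then IgG, anti-CTLA-4 and depletion, and their part in the microglia ratios was not tested.

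In macrophages of anti-CTLA-4 and IgG, 9 synthesis and 10 transport genes reached 50 UMIs. Anti-CTLA-4 against IgG gave 4 members higher and 0 lower, where 5.44% of 5294 genes were higher and 7.57% lower. They were Pmvk, from 34.4 to 60.9 CPM (ratio 1.77, 1.22 to 2.61), Nr1h3, from 24.4 to 39.9 (1.63, 1.03 to 2.62), Cyp51, from 16.8 to 25.6 (1.52, 0.865 to 2.73), and Idi1, from 24.4 to 36.9 (1.51, 0.947 to 2.43). The synthesis sum was 357 CPM in IgG and 458 in anti-CTLA-4, a ratio of 1.28 (1.13 to 1.45). The transport sum was nearly level (1.05, 1.01 to 1.10). At a 2-fold threshold the count of 4 was 0, and with cells grouped by clusters it was 2.

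Depletion was then set against anti-CTLA-4. Of 10 transport genes 5 were lower and 0 higher in macrophages, where 14% of 6881 genes were higher and 17.7% lower. Of the 12 synthesis genes with 50 UMIs, 1 was higher and 0 lower. Nr1h3 went from 39.9 CPM in anti-CTLA-4 to 10.0 in depletion, from 53 to 39 UMIs in 113 and 466 cells (ratio 0.251, 0.162 to 0.387). Abca1 went from 163 to 65.9 CPM (0.404, 0.336 to 0.486), Plin2 from 126 to 66.7 (0.531, 0.435 to 0.649) and Abcg1 from 89.5 to 48.7 (0.544, 0.431 to 0.691). Soat1 completed the 5 (0.608, 0.526 to 0.705). Receptor, both exporters, esterifying enzyme and droplet coat were thus all lower in the library with CD4 depletion, and the 5 intervals exclude 1. The IgG macrophages stood with anti-CTLA-4 and not with depletion, at 147 CPM of Abca1, 112 of Abcg1, 134 of Plin2 and 194 of Soat1, while Nr1h3 was between, at 24.4. Insig1 was higher, from 24.1 to 50.3 CPM (2.09, 1.43 to 3.14). The median of the 10 transport genes was -0.59 on the log2 scale, against -0.02 for all genes.

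**Figure D5:**
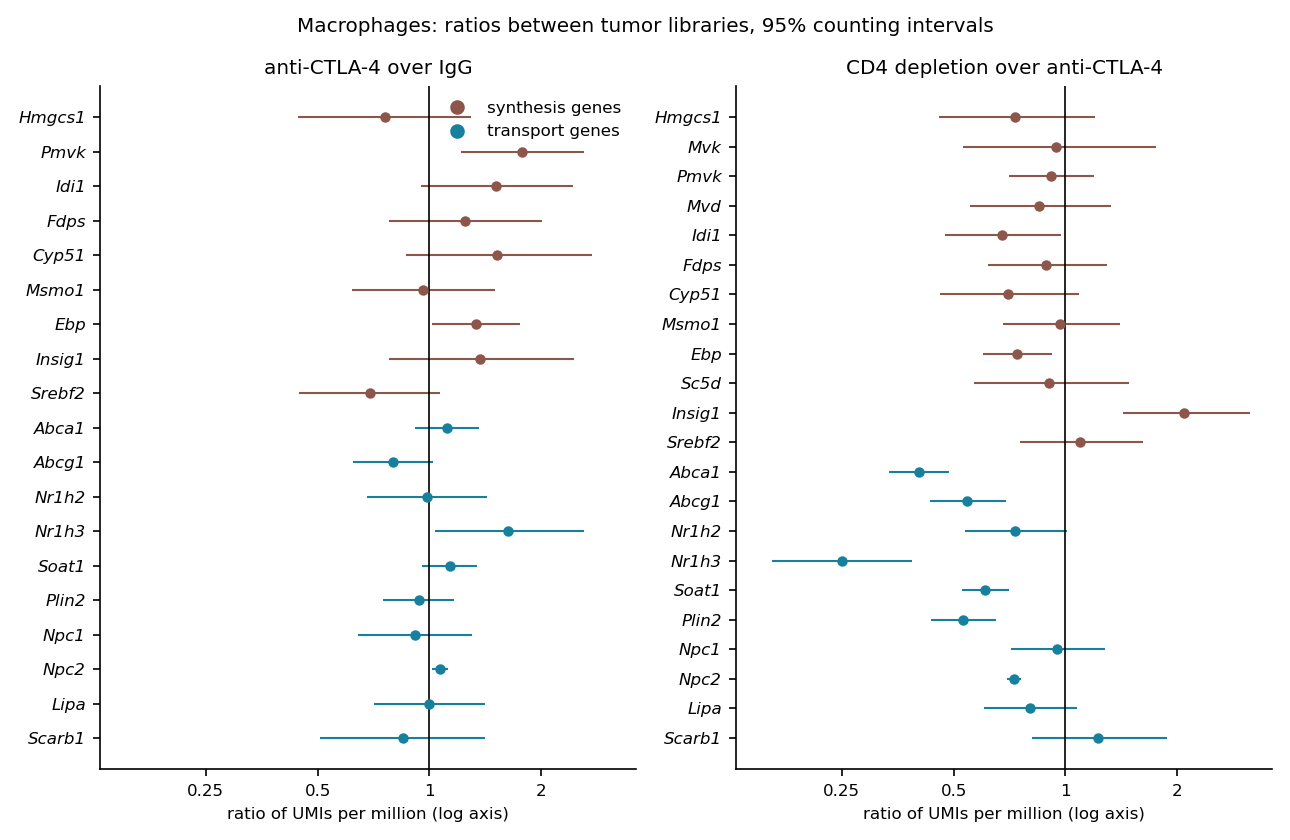
Ratio of CPM (horizontal axes, log scale) for members with at least 50 UMIs (vertical axes) in macrophages of anti-CTLA-4 over IgG and of CD4 depletion over anti-CTLA-4, with 95% counting intervals. On the right, Nr1h3, Abca1, Plin2, Abcg1 and Soat1 lie left of the line at 1, and Insig1 lies right of it.

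Other values moved with this comparison. Neutrophil markers in macrophages were 508 CPM in anti-CTLA-4 and 1524 in depletion, macrophage markers 16590 and 11017, and the median depth 10491 and 7651 UMIs. Of the macrophages, 31 of 113 and 97 of 466 lay near the line with monocytes. The part of these in the ratios was not tested. In monocytes of the same libraries Abca1 was at 72.6 and 50.4 CPM and Abcg1 at 140 and 79.0, and in dendritic cells Abca1 was at 19 and 5.57 and Abcg1 at 112 and 40.4. The lower levels of both exporters in depletion were thus also seen in these 2 lineages, and a difference of macrophages from them was not tested. With cells thinned to 1000 UMIs, which left fewer members with 50 UMIs, the 5 became 2, and at 2-fold it was also 2.

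In T cells, IgG against healthy brain gave 6 members higher and 1 lower, where 24% of 6312 genes were higher and 6.59% lower. Of the members, 9 synthesis and 7 transport genes reached 50 UMIs. The median of all genes was 0.18. Soat1 went from 19 to 49.2 CPM (ratio 2.59, 1.58 to 4.50, or 1.19 on the log2 scale relative to the median), and Plin2 from 3 UMIs (3.16 CPM) to 19.1 CPM (6.04, 1.96 to 30.2). Nr1h2 was the third transport gene (1.64, 1.08 to 2.58). The synthesis genes were Sc5d (1.86, 0.971 to 3.92), Pmvk (1.83, 0.954 to 3.86) and Ebp (1.57, 1.17 to 2.14), and Lipa was lower (0.610, 0.405 to 0.931). For anti-CTLA-4 against IgG, 14 synthesis and 8 transport genes reached 50 UMIs. Of these, 0 were higher and 0 lower, where 3.01% of 7762 genes were higher and 3.9% lower. Depletion against anti-CTLA-4 gave 1 higher, Insig1 (1.56, 0.992 to 2.52), and 1 lower, Plin2 (0.633, 0.437 to 0.914). Of all genes, 3.23% of 8353 were higher and 8.87% lower. In this comparison 16 synthesis and 8 transport genes reached 50 UMIs.

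Lastly, the members' levels were compared with each other across the 30 sums, which share libraries and cell types, so the values are descriptions. Pearson r was taken on log2 CPM after a constant was added to every CPM value, which weighs most on low values. The median r was 0.37 for the 120 pairs of synthesis genes, 0.41 for the 45 pairs of transport genes and 0.16 for the 160 mixed pairs. It was 0.07 for all pairs of 9718 genes with at least 200 UMIs. The closest pairs were Plin2 with Scarb1 (0.88), Soat1 with Plin2 (0.87) and Idi1 with Sqle (0.86). Sc5d stood apart from its side, with a median r of -0.21 to the other synthesis genes, and Dhcr7 was near 0 (0.07). The lowest values were between Srebf2 and Npc1 (-0.57) and between Sc5d and Lipa (-0.47).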

How the data were processed

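Single-cell RNA-seq counts were read for 4 libraries, made with 10x 3′ chemistry per the labels' protocols. The authors deposited unnormalized UMI counts for each gene in each barcode. The submitters' processing notes name Cell Ranger 3.1.0 and the mm10 build. Barcodes numbered 1420 for healthy brain, and 1484, 1874 and 3916 for IgG, anti-CTLA-4 and depletion. Barcodes under 200 detected genes or over 10% mitochondrial UMIs were dropped. Scrublet removed 12 and 10 doublets at its own threshold in healthy brain and IgG, and the top 5% of scores (90 and 169 cells) in the other 2 libraries, where its own threshold was not usable.

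Lineages were set cell by cell from marker UMIs, and a few markers that other lineages also carry were left out of the gates after the counts were seen. No lineage was set for plasmacytoid dendritic cells. The markers were not among the genes tested. Counts were summed per lineage and library where there were at least 20 cells and fitted with edgeR 4.0.16 (quasi-likelihood, TMM scaling, low-count filter, library as a block, Benjamini-Hochberg adjustment) in R 4.3.3. The standard error is the log2 difference divided by the square root of F. The fit was also run on simulated counts, in which libraries differed only in depth. That run does not check the fit for libraries of different groups. The 3 tumor libraries alone entered the cycling and Arg1 comparisons. Group ratios have exact conditional binomial 95% intervals, and level intervals are exact Poisson. UMIs are single molecules, but both cover counting error only. A level of 0 allows up to 3 counts. Libraries are not described in the labels as replicates of each other. The p-values therefore set a difference against the spread between libraries of different groups, pooled over the lineages or states in the fit.

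Alternatives were DESeq2 1.42.0, median-of-ratios scaling, other cell, UMI and fold thresholds, Leiden clusters (scanpy 1.11.5), thinning to 1000 UMIs, no doublet removal and leaving out each library. The rule was to give by library up to 4 called members a side with the largest differences, and those called against most of their side. Up to 3 called genes from each of the 3 further lists were to be named. This was not done in full, and some members under the rule are given only as a log2 difference or within a count. Some genes of these lists are not reported here. Other genes named, such as those that complete a short count, Pltp, and Hmgcs1 in cycling cells, were chosen after their values were seen. The members, the lists and the tests were chosen with earlier results of these data known. Promoter letters are from RefSeq (GRCm38.p6), matched by symbol for 23 of 29 genes.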

Additional observations from a re-analysis of the deposited data

How the results depend on the processing

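No paired analysis was possible because, between groups, each group is 1 library and the labels give no shared replicate numbers; the lineage, cycling and Arg1 comparisons already hold the library as a block. The dendritic cell counts of synthesis genes (12 higher, 0 lower) and the monocyte and macrophage counts of transport genes (8 higher, 0 lower in each) stayed within 1.5 times under each alternative run for them. Of the single-gene values under alternatives, 1286 kept their direction and side of the threshold, 152 kept their direction only and 0 reversed. Depth limits the group comparisons: 5 to 16 of 19 synthesis genes reached 50 UMIs between groups, and values with intervals that include 1 were not separable at this depth. The values that moved follow, each as reported and then under the alternative, and the cause was not tested except that thinning, a 2-fold threshold and another UMI minimum change by construction how many genes can be counted.

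Leaving out each library in turn, counts ranged in microglia (transport higher 3 to 6 against 6) and macrophages (synthesis higher 1 to 4 against 3). They ranged in neutrophils (synthesis lower 0 to 2 against 3, transport higher 1 to 3 against 2) and dendritic cells (transport higher 1 to 4 against 4, transport lower 0 to 2 against 2). They ranged in T cells (synthesis higher 0 to 2 against 2, synthesis lower 1 to 4 against 3, transport lower 5 to 9 against 9) and NK cells (synthesis higher 0 to 1 against 1, transport higher 0 to 1 against 1). They ranged in B cells (synthesis higher 0 to 1 against 1, synthesis lower 0 to 2 against 4, transport higher 0 to 1 against 0) and microglia against macrophages (synthesis higher 0 to 1 against 0, synthesis lower 5 to 9 against 9, transport higher 1 to 2 against 2, transport lower 3 to 6 against 6).

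With cells thinned to 1000 UMIs, counts of members changed in microglia anti-CTLA-4 over IgG (higher 1 to 0, lower 1 to 0), microglia depletion over anti-CTLA-4 (higher 2 to 1, lower 0 to 1), macrophages anti-CTLA-4 over IgG (higher 4 to 0) and macrophages depletion over anti-CTLA-4 (higher 1 to 0, lower 5 to 2). In the same way, counts of members changed in T cells IgG over healthy brain (higher 6 to 1, lower 1 to 0), T cells anti-CTLA-4 over IgG (lower 0 to 1), T cells depletion over anti-CTLA-4 (higher 1 to 0, lower 1 to 0) and cycling T cells (synthesis higher 3 to 0). With cells thinned to 1000 UMIs, median log2 ratios moved in microglia IgG over healthy brain (synthesis -0.16 to -0.31, transport -0.0904 to 0.0904), microglia anti-CTLA-4 over IgG (transport -0.0813 to 0.0013), microglia depletion over anti-CTLA-4 (synthesis 0.004 to 0.34, transport -0.13 to -0.32) and macrophages anti-CTLA-4 over IgG (transport -0.0111 to 0.26). Under that setting too, median log2 ratios moved in macrophages depletion over anti-CTLA-4 (transport -0.59 to -0.83), T cells IgG over healthy brain (synthesis 0.33 to 0.64, transport 0.23 to -0.36), T cells anti-CTLA-4 over IgG (synthesis -0.0991 to -0.39, transport 0.0872 to 0.23) and T cells depletion over anti-CTLA-4 (synthesis -0.0468 to 0.36). With lineages set by Leiden clusters, counts of members changed in microglia anti-CTLA-4 over IgG (lower 1 to 0), macrophages anti-CTLA-4 over IgG (higher 4 to 2, lower 0 to 1), T cells depletion over anti-CTLA-4 (higher 1 to 0, lower 1 to 0) and macrophages (synthesis higher 3 to 6). In the same way, counts of members changed in neutrophils (synthesis lower 3 to 6), NK cells (synthesis higher 1 to 0), B cells (synthesis higher 1 to 0) and microglia against macrophages (synthesis higher 0 to 1, transport higher 2 to 1). With lineages set by Leiden clusters, median log2 ratios moved in microglia depletion over anti-CTLA-4 (transport -0.13 to -0.30) and macrophages anti-CTLA-4 over IgG (synthesis 0.41 to 0.16). With CPM averaged over single cells, counts of members changed in microglia IgG over healthy brain (lower 1 to 4), microglia depletion over anti-CTLA-4 (higher 2 to 1, lower 0 to 1), macrophages anti-CTLA-4 over IgG (lower 0 to 2) and T cells IgG over healthy brain (lower 1 to 2). In the same way, counts of members changed in T cells depletion over anti-CTLA-4 (higher 1 to 0, lower 1 to 3). With CPM averaged over single cells, median log2 ratios moved in microglia IgG over healthy brain (transport -0.0904 to -0.18), microglia depletion over anti-CTLA-4 (transport -0.13 to -0.0306), macrophages anti-CTLA-4 over IgG (transport -0.0111 to 0.19) and T cells IgG over healthy brain (transport 0.23 to 0.46). With at least 20 UMIs in place of 50, counts of members changed in microglia IgG over healthy brain (lower 1 to 2), microglia anti-CTLA-4 over IgG (higher 1 to 3, lower 1 to 2), microglia depletion over anti-CTLA-4 (lower 0 to 1) and macrophages depletion over anti-CTLA-4 (lower 5 to 8). In the same way, counts of members changed in T cells IgG over healthy brain (lower 1 to 2) and T cells depletion over anti-CTLA-4 (higher 1 to 2, lower 1 to 2). With at least 20 UMIs in place of 50, median log2 ratios moved in macrophages depletion over anti-CTLA-4 (synthesis -0.16 to -0.34) and T cells depletion over anti-CTLA-4 (transport -0.19 to -0.0746). At 2-fold, counts of members changed in microglia anti-CTLA-4 over IgG (higher 1 to 0, lower 1 to 0), microglia depletion over anti-CTLA-4 (higher 2 to 0), macrophages anti-CTLA-4 over IgG (higher 4 to 0) and macrophages depletion over anti-CTLA-4 (lower 5 to 2). In the same way, counts of members changed in T cells IgG over healthy brain (higher 6 to 2, lower 1 to 0) and T cells depletion over anti-CTLA-4 (higher 1 to 0, lower 1 to 0). With median-of-ratios scaling, counts of members changed in T cells IgG over healthy brain (lower 1 to 3), T cells depletion over anti-CTLA-4 (lower 1 to 0) and microglia against macrophages (transport higher 2 to 1). With median-of-ratios scaling, median log2 ratios moved in microglia IgG over healthy brain (synthesis -0.16 to 0.16, transport -0.0904 to 0.23), microglia depletion over anti-CTLA-4 (transport -0.13 to -0.0337), T cells IgG over healthy brain (transport 0.23 to 0.0492) and T cells depletion over anti-CTLA-4 (transport -0.19 to -0.10). With totals that omit ribosomal and mitochondrial genes, counts of members changed in macrophages anti-CTLA-4 over IgG (higher 4 to 2), T cells IgG over healthy brain (lower 1 to 3) and T cells anti-CTLA-4 over IgG (lower 0 to 1). With totals that omit ribosomal and mitochondrial genes, median log2 ratios moved in microglia IgG over healthy brain (transport -0.0904 to 0.0291), microglia depletion over anti-CTLA-4 (transport -0.13 to 0.0012), macrophages depletion over anti-CTLA-4 (transport -0.59 to -0.46) and T cells IgG over healthy brain (transport 0.23 to 0.0474). Without doublet removal, counts of members changed in T cells anti-CTLA-4 over IgG (lower 0 to 1), T cells depletion over anti-CTLA-4 (higher 1 to 0), neutrophils (synthesis lower 3 to 1) and cycling T cells (synthesis higher 3 to 5). Without doublet removal, median log2 ratios moved in macrophages anti-CTLA-4 over IgG (transport -0.0111 to 0.0513) and T cells depletion over anti-CTLA-4 (synthesis -0.0468 to 0.0827). Without the filter on low counts, counts of members changed in T cells (synthesis higher 2 to 1), NK cells (synthesis higher 1 to 0) and cycling T cells (synthesis higher 3 to 5, transport lower 0 to 1). With DESeq2, counts of members changed in microglia against macrophages (transport higher 2 to 1). With cells of at least 500 genes, counts of members changed in microglia against macrophages (transport higher 2 to 1). With at least 50 cells a sum, counts of members changed in microglia against macrophages (transport higher 2 to 1).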
